A study of Mus musculus with 59 samples.

Results

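The genes described here code for the ligands, receptors and modulators of Wnt signalling, and they were followed through 2 histone marks in the uterus of C57/B6 mice at 4 ages. Members were every peak whose deposited gene name was a Wnt ligand, a Frizzled receptor (Fzd), an R-spondin (Rspo), a leucine-rich repeat receptor Lgr4 to Lgr6, a Dickkopf (Dkk), a secreted Frizzled-related protein (Sfrp), Nkd1, Nkd2, Axin1, Axin2, Lrp5, Lrp6, Tcf7, Tcf7l1, Tcf7l2, Znrf3, Rnf43, Notum, Wif1 or Ctnnb1. This gave 85 of 25835 H3K4me3 peaks, at 52 of 15809 named genes, and 177 of 54362 H3K27ac peaks, at 40 of 16767 named genes. In all there were 53 genes, of which 39 had a peak in both marks, 13 had H3K4me3 alone and 1, Fzd6, had H3K27ac alone. Lef1, named in the same rule, was not analysed here.

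The groups were young animals of 9 to 11 weeks (n = 7), aged group 1 of 28 to 36 weeks (n = 4), aged group 2 of 42 to 48 weeks (n = 6) and aged group 3 of 54 to 65 weeks (n = 10). Native chromatin from small aliquots of nuclei was immunoprecipitated for H3K4me3, a mark of promoters, and for H3K27ac, a mark of active promoters and enhancers, so each animal gave 1 library per mark. No treatment, transgene or deletion was named for any group, and the oestrous stage of the animals is not given in the sources used here. The labels call the tissue uterus, while their protocol speaks of pieces of endometrium.

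Wnt proteins are secreted lipid-modified ligands that bind a Frizzled receptor together with the co-receptor Lrp5 or Lrp6. In the canonical branch this stops the breakdown of beta-catenin, the product of Ctnnb1, which then acts with TCF and LEF factors on target genes, and other branches signal through Frizzled without beta-catenin. In the uterus, signals between stroma and epithelium that include Wnt4, Wnt5a and Wnt7a are known for patterning the reproductive tract, forming glands and preparing the tissue for implantation.

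The 250 bases before the start of 4 members are shown because peaks of both marks covered these starts and passed the age test described below, lower at Axin2, Wnt9a and Wnt11 and higher at Rnf43. All 4 are from RefSeq on GRCm38.p6, plus strand, 5′ to 3′. Axin2 lies at chr11:108920099-108920348, Wnt9a at chr11:59306680-59306929, Rnf43 at chr11:87662837-87663086 and Wnt11 at chr7:98834862-98835111. Capitals mark each CG dinucleotide in the first 3, and in Wnt11 they mark TCAAAG, the reverse complement of CTTTGA, the core of the motif bound by TCF and LEF factors.
Axin2: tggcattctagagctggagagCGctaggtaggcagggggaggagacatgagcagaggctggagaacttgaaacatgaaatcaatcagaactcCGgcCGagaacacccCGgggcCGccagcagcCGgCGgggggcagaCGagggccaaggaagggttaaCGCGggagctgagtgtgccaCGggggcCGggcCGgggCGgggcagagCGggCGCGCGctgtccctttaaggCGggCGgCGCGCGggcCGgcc
Wnt9a: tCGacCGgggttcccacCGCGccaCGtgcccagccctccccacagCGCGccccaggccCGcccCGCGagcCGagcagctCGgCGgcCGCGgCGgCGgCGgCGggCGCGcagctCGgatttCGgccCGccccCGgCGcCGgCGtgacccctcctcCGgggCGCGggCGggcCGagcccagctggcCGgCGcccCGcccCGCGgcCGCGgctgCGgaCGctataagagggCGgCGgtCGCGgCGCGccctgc
Rnf43: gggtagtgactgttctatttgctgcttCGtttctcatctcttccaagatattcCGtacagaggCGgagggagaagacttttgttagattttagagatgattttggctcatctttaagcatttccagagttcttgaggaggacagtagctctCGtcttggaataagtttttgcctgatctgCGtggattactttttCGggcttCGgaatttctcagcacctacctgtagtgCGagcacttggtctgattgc
Wnt11: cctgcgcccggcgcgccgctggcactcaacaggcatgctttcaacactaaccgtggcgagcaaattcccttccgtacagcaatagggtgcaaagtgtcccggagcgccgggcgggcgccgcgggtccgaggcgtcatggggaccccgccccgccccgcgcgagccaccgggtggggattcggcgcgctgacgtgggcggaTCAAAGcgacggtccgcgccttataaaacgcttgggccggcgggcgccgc

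These windows held 24 CG dinucleotides at Axin2, 48 at Wnt9a, 8 at Rnf43 and 37 at Wnt11. Over the 41 windows that the RefSeq table held for 34 of the 53 genes, the median was 21 CG dinucleotides (range 2 to 48), against 6 over all 32851 windows of that length. All windows, here and in the motif counts that follow, were not limited to genes with a peak, as the members were. The 2 sets are thus not alike. CTTTGA, searched on both strands, was found in 4 of the 41 windows (9.76%), those of Fzd1, Wnt5b, Wnt11 and Dkk1, against 13.8% of all windows. In Wnt11 it began 50 bases before the start. The palindromic oestrogen response element, also searched on both strands, was found in 0 of the 41 windows and in 0.0639% of all. Of the 41 starts, 31 lay inside an H3K4me3 peak of the same gene and 21 inside an H3K27ac peak.

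Levels are given as log2 RPKM, reads scaled to peak length and library total, after quantile normalization among the 27 libraries per mark, so levels can be compared between peaks per unit of length. The 13 genes with H3K4me3 alone were Dkk2, Fzd9, Notum, Rspo1, Rspo2, Wif1, Wnt1, Wnt10a, Wnt3, Wnt6, Wnt8a, Wnt8b and Wnt9b, a group that holds ligands, R-spondins, a receptor and secreted inhibitors. Their highest H3K4me3 peak had a median level of 2.22 (range 0.89 to 3.34), against 3.36 (range 1.63 to 4.22) in the 39 genes with both marks. A promoter peak is one within 1 kb of a RefSeq start of its gene, and 43 genes had one for H3K4me3 and 32 for H3K27ac. Where a gene had more than 1, the peak with the highest mean level over all libraries stands for its promoter in counts of genes. Promoter peaks made up 54.1% of member H3K4me3 peaks and 21.5% of member H3K27ac peaks, against 50.8% and 22.5% of all peaks. Median width of the H3K4me3 promoter peaks was 3098 bases for members and 2387 bases for all genes.

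Sequencing depth was 6.84 M to 48.3 M reads for H3K4me3 and 7.60 M to 16.9 M for H3K27ac, and the median reads in a member peak were 93 and 49. Markers of several other cell types, though not of all those scored, moved with age in these libraries. Each score averages the log2 RPKM of a list's promoter peaks. Aged group 3 was compared with young by an exact two-sided permutation test, adjusted over 19 scores by Benjamini-Hochberg. For H3K4me3, 20 of 21 measured epithelial markers were higher and 0 lower (score difference 0.96, adjusted p = 0.00814), 13 of 14 stromal markers were lower and 0 higher (-0.91, adjusted p = 0.00899), 7 of 13 smooth muscle markers were lower and 0 higher (-0.62, adjusted p = 0.00814), and 4 of 5 mesothelial markers were lower (-1.34, adjusted p = 0.00814). The epithelial score spanned 2.26 to 2.97 in young and 2.36 to 4.05 in aged group 3, and the stromal score 2.87 to 3.48 and 1.46 to 3.54. Over all genes' promoter peaks, 18% were lower and 8.78% higher for H3K4me3, and 19.6% and 6.4% for H3K27ac. For H3K27ac, 11 of 20 epithelial markers were higher and 0 lower (0.49, permutation test, adjusted p = 0.0194). Lower were 13 of 14 stromal markers (-0.91, adjusted p = 0.00899) and 4 of 9 smooth muscle markers (-0.54, adjusted p = 0.00814), by the same test. Leukocyte markers gave 0.20 (adjusted p = 0.145) for H3K4me3, with 5 of 14 higher and 0 lower, although the median change of the list was -0.21. For H3K27ac they gave 0.53 (adjusted p = 0.00814), with 5 of 9 higher and 0 lower. Blood endothelial scores did not pass in either mark. They changed by 0.03 for H3K4me3 (permutation test, adjusted p = 0.860), with 3 of 11 markers higher and 2 lower. For H3K27ac the change was 0.07 (permutation test, adjusted p = 0.638), with 3 of 9 higher and 1 lower. Esr1, Pgr and Msx1, expressed in uterus, carried both marks in every group. Esr1 was higher for H3K4me3 by 0.27 ± 0.087 (limma, adjusted p = 0.021). Replicates 3, 4 and 10 of aged group 3 lay nearer to the young libraries in the epithelial and stromal scores than the others did. The same held for the smooth muscle score of H3K27ac. It did not hold for the smooth muscle and mesothelial scores of H3K4me3, or for the leukocyte scores. In pieces of tissue, fewer cells of a type and less of a mark per cell cannot be told apart.

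In aged group 3 more H3K4me3 peaks of Wnt genes were lower than higher. Of the 85 H3K4me3 peaks, 26 were lower than in young and 10 were higher (limma, Benjamini-Hochberg adjusted p under 0.05 over all peaks). Counted together these are 36 of 85, or 42.4%, against 30.7% of all H3K4me3 peaks called in either direction. By direction, 30.6% of the members were lower against 16.4% of all peaks, and 11.8% were higher against 14.2% of all peaks. With the digit of the library code in the model, described at the end, the called share was 8.24% of members and 9.03% of all peaks. The median change of the member peaks was -0.16 on the log2 scale, and that of all peaks -0.02. These calls came beside the lower stromal and higher epithelial marker scores given above, and a fit with those scores is given after the genes. With 1 promoter peak per gene, 17 of 43 genes were lower and 5 higher, where 18% and 8.78% of all genes' promoter peaks were, and the median change was -0.26 against -0.04. Over all 46 member promoter peaks, 19 were lower and 5 higher.

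For H3K27ac, 38 of 177 member peaks were lower and 16 higher. The called share was 30.5%, against 29.3% of all H3K27ac peaks, so it lay near the background. Lower peaks made up 21.5% of members and 14.9% of all peaks, and higher peaks 9.04% and 14.4%. Peaks of 1 gene were counted separately here, and Nkd1 gave 7 and Wnt16 4 of the 38 lower peaks. At promoters 11 of 32 genes were lower and 2 higher, against 19.6% and 6.4% of all genes with such a peak, with a median change of -0.31 against -0.14. The count of 16 higher peaks depended on single libraries. It was 6 to 10 without young replicate 1, 2, 3 or 6 or without replicate 2, 6, 8 or 9 of aged group 3, and 25 without replicate 10 of that group.

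Of the 32 genes with a promoter peak in both marks, 7 were lower in both (Wnt5a, Wnt9a, Wnt11, Wnt16, Fzd2, Rspo3 and Axin2) and 2 were higher in both (Wnt7b and Rnf43). Over the 10599 genes with a promoter peak in both marks, 9.51% were lower in both and 3.92% higher in both. Of the calls behind these counts, those of Wnt5a and Wnt16 for H3K4me3 were lost in 10 and 12 of the 17 fits that left out 1 library, that of Wnt16 for H3K27ac in 1 and that of Rnf43 for H3K27ac in 12. None of the 32 had opposite calls in the 2 marks, 8 passed for H3K4me3 alone, 4 for H3K27ac alone and 11 for neither. Those 9 shared calls are 9 of 17 genes called for H3K4me3 and 9 of 13 called for H3K27ac. Both marks were measured in the same animals, so these are not independent samples. The promoter peak was picked per mark, so the peaks compared can lie at different starts, as at Wnt5b and Axin2. Shares of all genes with opposite calls, or with a call in 1 mark alone, were not counted.

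**Figure D1:**
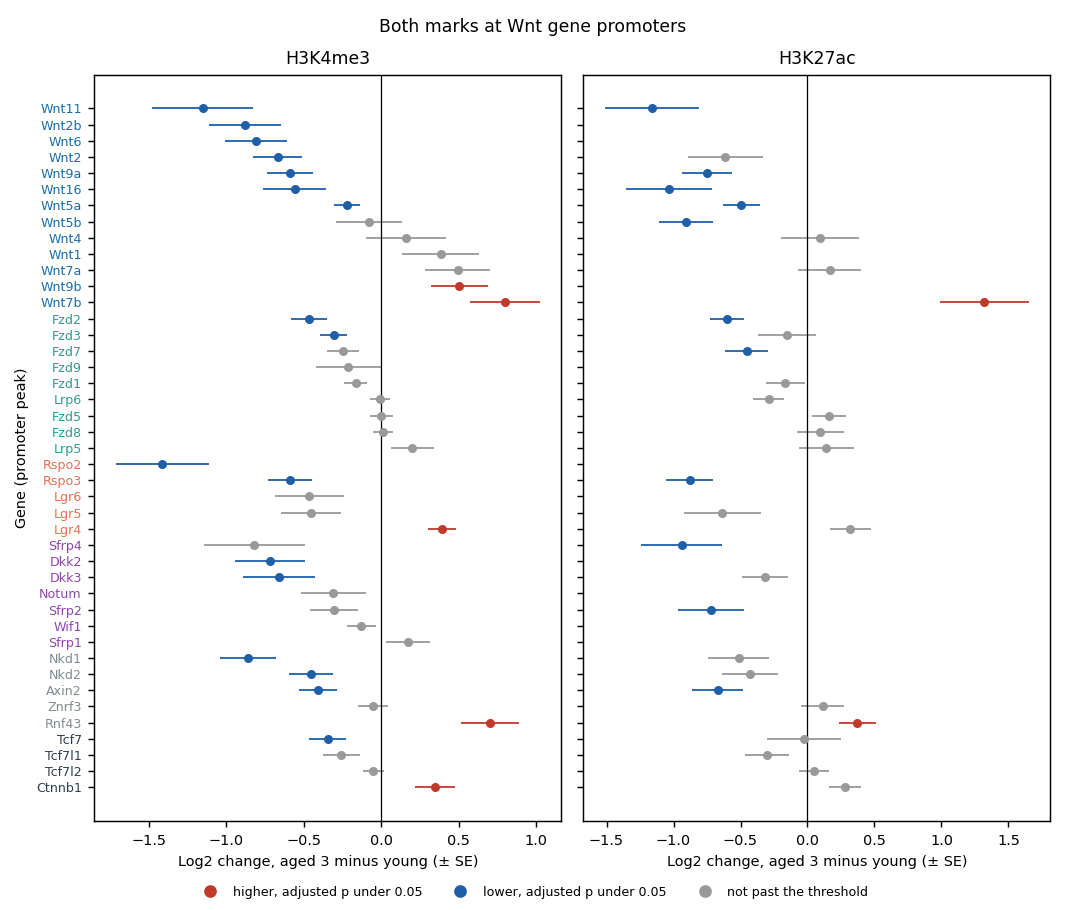
Log2 change of aged group 3 against young (± SE, limma) at 1 promoter peak per gene, for H3K4me3 (43 genes, left) and H3K27ac (right, the genes that also had an H3K4me3 promoter peak), with gene names coloured by role. Rspo2 at -1.41 is the lowest H3K4me3 value and Wnt7b the highest value in both panels, 0.80 and 1.32.

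Among the ligands, 11 of 30 H3K4me3 peaks were lower and 3 higher, and at promoters 7 of 13 genes were lower and 2 higher. The peak shares were 36.7% and 10%, against 16.4% and 14.2% of all H3K4me3 peaks. Of all genes' H3K4me3 promoter peaks, 18% were lower and 8.78% higher. Lower promoters were those of Wnt2, Wnt2b, Wnt5a, Wnt6, Wnt9a, Wnt11 and Wnt16, and higher ones those of Wnt7b and Wnt9b. For H3K27ac, 13 of 42 ligand peaks were lower and 3 higher, shares of 31% and 7.14% against 14.9% and 14.4% of all peaks. At promoters 5 of 9 were lower (Wnt5a, Wnt5b, Wnt9a, Wnt11 and Wnt16) and 1 higher (Wnt7b). Of all genes' H3K27ac promoter peaks, 19.6% were lower and 6.4% higher. In young uterus the H3K4me3 level of ligand promoters was highest at Wnt5a (mean 4.34), followed by Wnt11 (3.83), Wnt16 (3.21) and Wnt7a (3.17), and lowest at Wnt1 (1.58).

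Wnt2, a ligand of the canonical branch, had H3K4me3 levels at its promoter (chr6:18029969-18032442) from 2.51 to 3.13 in young, median 2.94. Levels in aged group 1 were 2.68, 2.91, 2.82 and 2.54, and in aged group 2 they ran from 2.40 to 2.97, median 2.81. In aged group 3 they ran from 1.63 to 2.68, median 2.18. All 10 libraries of that group lay below the young mean and 7 lay below every young library, so the groups overlapped in part. The change was -0.67 ± 0.16 (limma, adjusted p = 0.00343). H3K27ac at the Wnt2 promoter changed by -0.61 ± 0.28 (limma, adjusted p = 0.0892) and did not pass.

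Wnt6, which had no H3K27ac peak, had H3K4me3 levels from 1.85 to 2.57 in young, median 2.28. They were 2.03, 2.17, 1.98 and 2.02 in aged group 1, 1.49 to 2.33 (median 1.79) in aged group 2, and 0.89 to 2.24 (median 1.48) in aged group 3. Every library of aged group 3 was below the young mean and 7 were below the lowest young library. The change was -0.81 ± 0.20 (limma, adjusted p = 0.00417). Wnt2b fell by 0.88 ± 0.23 for H3K4me3 at its promoter (limma, adjusted p = 0.00631), and its H3K27ac fell at 2 of 3 peaks, by 0.86 ± 0.24 at 19.9 kb from the start (limma, adjusted p = 0.0119) and by 0.59 ± 0.22 upstream of the start (limma, adjusted p = 0.0408, lost in 10 of the 17 fits that left out 1 library).

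Wnt11 is a ligand studied mostly for beta-catenin-independent signalling. Its promoter H3K4me3 (chr7:98834368-98839516), which covers the sequence above, ran from 3.53 to 4.29 in young, median 3.81, and from 1.53 to 4.11 in aged group 3, median 2.45. In aged group 3, 7 libraries were below every young one and 2 were above the young mean. It fell by 1.15 ± 0.33 (limma, adjusted p = 0.00988), and its promoter H3K27ac fell by 1.16 ± 0.35 (limma, adjusted p = 0.0177). Wnt9a, whose CG-dense promoter is shown above, had H3K27ac from 1.10 to 2.12 in young, median 1.63, and from 0.37 to 1.69 in aged group 3, median 0.81. Aged group 1 held 1.48, 1.17, 1.79 and 1.51, and aged group 2 ran from 1.24 to 1.62, median 1.45. The fall was 0.75 ± 0.19 for H3K27ac (limma, adjusted p = 0.00674) and 0.59 ± 0.15 for H3K4me3 (limma, adjusted p = 0.00493).

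Wnt16 was lower at 4 of its 5 H3K27ac peaks, with the calls at the promoter and at 5.09 kb each lost in 1 of 17 fits without 1 library. The fifth peak, upstream of the start, changed the other way, by 0.93 ± 0.37 (limma, adjusted p = 0.0557), and 5 libraries of aged group 3 exceeded every young one there. Promoter H3K4me3 of Wnt16 fell by 0.56 ± 0.21 (limma, adjusted p = 0.0389, lost in 12 of 17 fits without 1 library). The H3K27ac peak at 2.53 kb inside the gene (chr6:22290759-22291570) ran from 1.08 to 2.72 in young, median 1.95. In aged group 1 it was 2.11, 1.75, 1.59 and 0.72, in aged group 2 it ran from 0.71 to 2.08, median 1.72, and in aged group 3 from -2.70 to 2.72, median 0.13. Of the 10 libraries of aged group 3, 8 were below every young library, while the highest of them lay just under the highest young value. The change was -1.93 ± 0.49 (limma, adjusted p = 0.00791), on a median of 21 reads. H3K4me3 at the same place fell by 1.75 ± 0.46 (limma, adjusted p = 0.00605). Among animals with mouse numbers under 100 (6 young, 3 of aged group 3) the H3K27ac change at this peak was -3.80 and passed there too (limma, adjusted p = 0.0294).

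Wnt5a, a ligand of the beta-catenin-independent branch made in uterine stroma, had the highest ligand levels and a small change. H3K4me3 over its promoter (chr14:28503883-28515773) ran from 4.16 to 4.52 in young, median 4.30, and from 3.79 to 4.37 in aged group 3, median 4.15. Aged group 1 held 4.31, 4.17, 4.39 and 3.99, and aged group 2 ran from 3.92 to 4.42, median 4.29. In aged group 3, 5 of 10 libraries lay below every young one. The change was -0.22 ± 0.084 (limma, adjusted p = 0.0439) and the call was lost in 10 of the 17 fits that left out 1 library. H3K27ac over the same promoter, with 2.09 to 2.81 in young (median 2.56), 2.46, 2.29, 2.66 and 2.13 in aged group 1, 1.89 to 2.60 (median 2.45) in aged group 2 and 1.44 to 2.64 in aged group 3 (median 1.98), changed by -0.49 ± 0.14 (limma, adjusted p = 0.0116).

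Wnt5b, with 3 annotated starts, passed at one of them. The H3K27ac peak over the middle start (chr6:119466832-119467892) ran from 2.08 to 2.65 in young, median 2.31. Its levels were 2.54, 1.69, 2.12 and 2.03 in aged group 1, 1.38 to 2.64 (median 2.16) in aged group 2 and 0.97 to 2.52 in aged group 3, median 1.15. There 8 of 10 libraries of aged group 3 were below every young library and 1 was above the young mean, a fall of 0.91 ± 0.20 (limma, adjusted p = 0.00428). The H3K4me3 peaks at the other starts changed by -0.08 ± 0.21 and -0.0031 ± 0.20, and neither passed. An H3K4me3 peak 5.13 kb from a start rose by 1.20 ± 0.32 (limma, adjusted p = 0.00685), from a young median of 0.96 to 2.13.

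Wnt7b, a ligand made by epithelia, went the other way. Its promoter H3K27ac (chr15:85579559-85581883) ran from -0.74 to 1.16 in young, median -0.40. It was 0.42, 0.24, 0.38 and 0.64 in aged group 1 and -0.34 to 1.89 (median 0.80) in aged group 2. In aged group 3 it ran from -0.37 to 1.96, median 1.58, and 8 of the 10 libraries exceeded every young one. The rise was 1.32 ± 0.33 (limma, adjusted p = 0.00744). Peaks at 41.5 and 45.1 kb rose too, by 1.80 ± 0.50 and 1.64 ± 0.44 (limma, adjusted p = 0.011 and 0.0104), and promoter H3K4me3 rose by 0.80 ± 0.23 (limma, adjusted p = 0.0101). A narrow H3K4me3 peak 3.13 kb inside the gene moved in the opposite direction, by -1.30 ± 0.43 (limma, adjusted p = 0.0241). Wnt9b, needed for the early reproductive tract, rose by 0.50 ± 0.19 for H3K4me3 (limma, adjusted p = 0.0406), a call lost in 11 of the 17 fits that left out 1 library.

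Wnt4 and Wnt7a, whose loss in mice is known to disturb uterine development and function, did not pass at their promoters. Wnt4 H3K4me3 ran from 2.39 to 2.94 in young, median 2.53, and from 1.86 to 3.37 in aged group 3, median 2.81, with 1.07 to 3.28 (median 2.31) in aged group 2 and 2.67, 1.79, 2.28 and 2.57 in aged group 1. The older groups spread to both sides of the young values, and the change was 0.16 ± 0.26 (limma, adjusted p = 0.665). Its direction turned, to -0.14 with the library code digit in the model and to -0.74 with the epithelial minus stromal marker score. H3K27ac at the Wnt4 promoter ran from 0.34 to 1.83 in young (median 1.06), held 0.58, -0.45, 1.17 and 0.39 in aged group 1, and ran from -0.35 to 1.32 in aged group 2 (median 0.60) and from -0.05 to 1.70 in aged group 3 (median 1.36). It changed by 0.09 ± 0.29 (limma, adjusted p = 0.822), a value that turned negative in 6 alternatives, while a peak at 4.57 kb fell by 0.65 ± 0.21 (limma, adjusted p = 0.0229, lost in 2 of 17 fits without 1 library). Wnt7a changed by 0.49 ± 0.21 for H3K4me3 (limma, adjusted p = 0.0748), with 2.61 to 3.69 in young (median 3.10), 2.50, 2.81, 3.15 and 2.78 in aged group 1, 2.98 to 4.09 in aged group 2 (median 3.35) and 2.40 to 4.45 in aged group 3 (median 3.78). For H3K27ac it ran from 0.41 to 2.24 in young (median 1.26), held 0.67, 0.84, 1.31 and 1.13 in aged group 1, and ran from 1.11 to 2.00 in aged group 2 (median 1.45) and from 0.59 to 1.92 in aged group 3 (median 1.60), a change of 0.16 ± 0.23 (limma, adjusted p = 0.602).

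Some ligand genes had called H3K4me3 peaks only away from a start. Wnt10a fell by 1.12 ± 0.33 at 2.44 kb (limma, adjusted p = 0.0135), and Wnt8b by 0.76 ± 0.21 at 17.8 kb (limma, adjusted p = 0.00977), with all 10 libraries of aged group 3 below the young mean at both. Further H3K27ac peaks fell at Wnt9a, by 0.78 ± 0.21 at 26.4 kb (limma, adjusted p = 0.01), and upstream of Wnt11, by 1.02 ± 0.38 (limma, adjusted p = 0.0436, lost in 11 of 17 fits without 1 library). Wnt1, Wnt3, Wnt3a, Wnt8a and Wnt10b had no called peak in either mark.

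**Figure D2:**
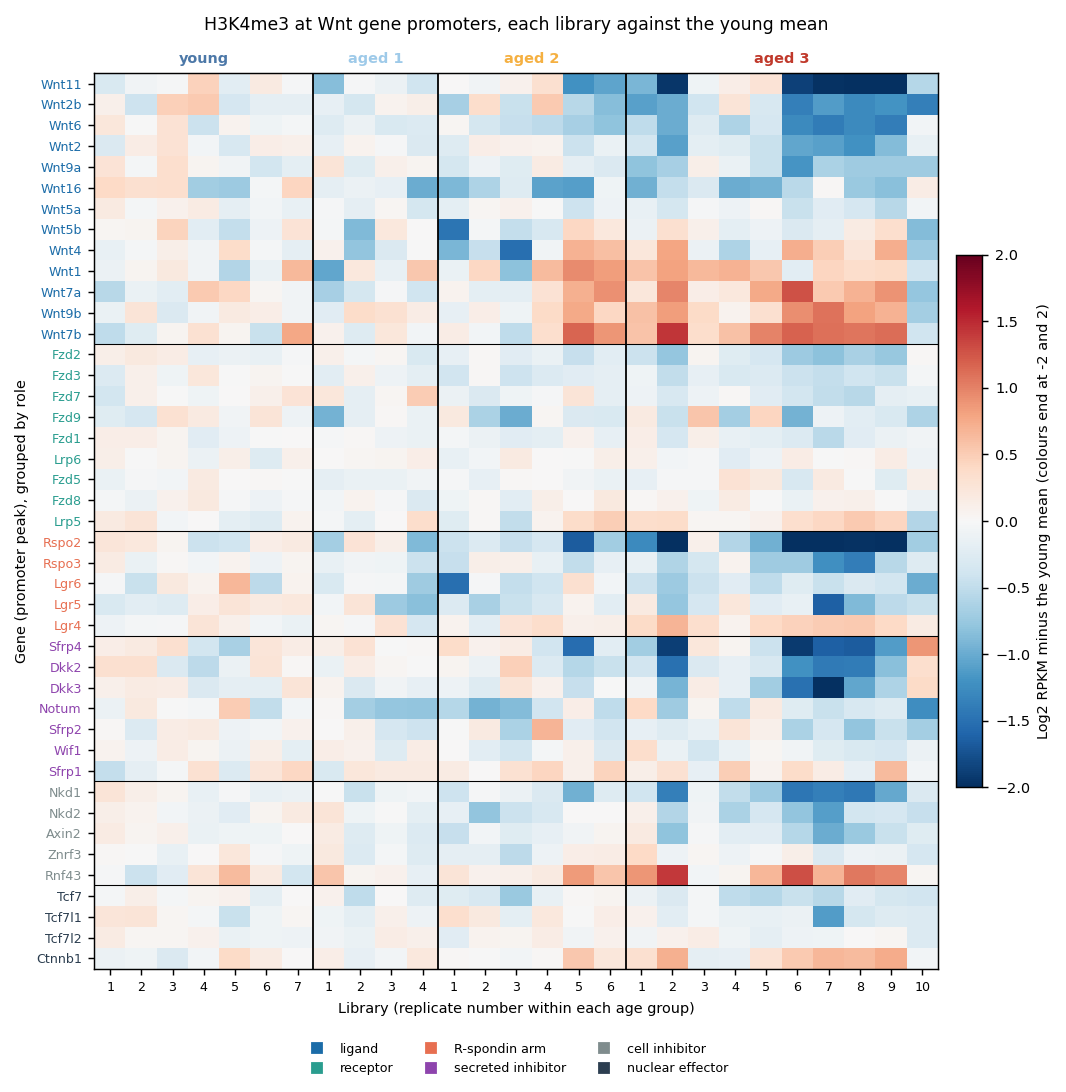
H3K4me3 at 43 promoter peaks (rows, grouped by role) in 27 libraries (columns, in age groups), as log2 RPKM minus the young mean, with blue lower and red higher. Replicates 3, 4 and 10 of aged group 3 are paler than replicates 2 and 6 to 9, where Wnt11, Rspo2 and Sfrp4 fall furthest.

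Of 9 receptor and co-receptor promoters, 2 were lower in H3K4me3, Fzd2 and Fzd3, and 0 higher, and over all 14 receptor peaks 2 were lower and 2 higher. For H3K27ac 3 of 27 receptor peaks were lower and 5 higher. These shares, 11.1% and 18.5%, lay near the 14.9% and 14.4% of all H3K27ac peaks. Those of H3K4me3, 14.3% in each direction, lay near the 16.4% lower and 14.2% higher of all H3K4me3 peaks. Differences between roles were not tested. Fzd2 was the 1 member peak, of 177 in H3K27ac and 85 in H3K4me3, whose aged group 3 and young libraries did not overlap, where 0.559% of all H3K27ac peaks and 1.27% of all H3K4me3 peaks did not. Its promoter H3K27ac (chr11:102601586-102609569) ran from 2.01 to 2.38 in young, median 2.16, and from 1.04 to 1.87 in aged group 3, median 1.69. Between them lay aged group 1 with 2.04, 1.73, 2.23 and 1.72 and aged group 2 with 1.67 to 2.16, median 1.90, both of which overlapped the young range. The fall was 0.60 ± 0.13 (limma, adjusted p = 0.00291). H3K4me3 at Fzd2 ran from 3.57 to 3.94 in young, median 3.72, held 3.84, 3.70, 3.78 and 3.43 in aged group 1, and ran from 3.27 to 3.76 in aged group 2, median 3.55, and from 2.92 to 3.79 in aged group 3, median 3.20, a fall of 0.47 ± 0.11 (limma, adjusted p = 0.00416).

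Fzd3, a receptor of the planar polarity branch, fell by 0.31 ± 0.085 for H3K4me3, with all 10 libraries of aged group 3 below the young mean (limma, adjusted p = 0.00873). A further Fzd2 H3K27ac peak, at 5.80 kb, fell by 0.69 ± 0.25 (limma, adjusted p = 0.0371, lost in 11 of 17 fits without 1 library). Fzd7 fell by 0.45 ± 0.16 for H3K27ac (limma, adjusted p = 0.0345, lost in 10 of 17 fits without 1 library). Promoter H3K4me3 of Fzd5, Fzd8 and Lrp6 changed by 0.00 ± 0.07, 0.01 ± 0.06 and -0.01 ± 0.06.

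At the co-receptors Lrp5 and Lrp6 the called peaks lay inside or beyond the gene, and all were higher. Their promoter peaks did not pass, with changes of 0.20 and -0.01 for H3K4me3 and 0.14 and -0.29 for H3K27ac, and promoter and distal peaks were not tested against each other. At Lrp6 the H3K4me3 peak at 31.2 kb (chr6:134534832-134535713) ran from -0.04 to 1.75 in young, median 0.34. Its levels were 2.06, 0.63, 0.96 and 1.38 in aged group 1, 0.95 to 1.75 (median 1.32) in aged group 2 and 1.15 to 2.64 in aged group 3, median 1.74. All 10 libraries of aged group 3 exceeded the young mean, and 5 exceeded every young library. The rise was 1.26 ± 0.26 (limma, adjusted p = 0.00132). Another H3K4me3 peak, at 123 kb, rose by 1.12 ± 0.28 (limma, adjusted p = 0.00442). H3K27ac rose at both places, by 0.66 ± 0.20 near 30.9 kb (limma, adjusted p = 0.018, lost in 1 of 17 fits without 1 library) and by 0.95 ± 0.24 near 122 kb (limma, adjusted p = 0.0074). At the second of these places the range was 0.70 to 2.07 in young (median 0.98), 0.45 to 2.29 in aged group 2 (median 1.68) and 0.98 to 2.66 in aged group 3 (median 2.22), and aged group 1 held 1.62, 0.94, 1.48 and 0.97. That last peak was assigned to Lrp6 in the deposited table and lies outside the gene. Lrp5 rose at 3 of 9 H3K27ac peaks, between 3.93 and 15.4 kb from the start, by 0.63 to 0.91, and each of these calls was lost in 10 or 11 of the 17 fits without 1 library.

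The R-spondin arm held the largest fall among the H3K4me3 promoter peaks shown in the plot of both marks, that of Rspo2. R-spondins are secreted proteins that bind Lgr4, Lgr5 or Lgr6 and keep the ubiquitin ligases Znrf3 and Rnf43 from removing Frizzled receptors. Of 10 H3K4me3 peaks, 4 were lower (Rspo1, Rspo2, Rspo3 and an internal peak of Lgr5) and 1 higher (Lgr4), or 40% and 10%. Of all H3K4me3 peaks 16.4% were lower and 14.2% higher. Of 13 H3K27ac peaks 0 were higher, and the 3 lower ones, 23.1%, were the 3 of Rspo3. Of all H3K27ac peaks 14.9% were lower and 14.4% higher.

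Rspo2 H3K4me3 (chr15:43169566-43171120) ran from 2.19 to 2.85 in young, median 2.76. It was 1.94, 2.88, 2.73 and 1.74 in aged group 1 and 0.94 to 2.35 (median 2.17) in aged group 2. In aged group 3 it ran from 0.29 to 2.72, median 0.99, with 9 of 10 libraries below every young one and replicate 3 inside the young range. The fall was 1.41 ± 0.30 (limma, adjusted p = 0.00163). Rspo2 had no H3K27ac peak among those analysed, and neither had Rspo1, whose H3K4me3 peak at 3.42 kb fell by 1.27 ± 0.46 (limma, adjusted p = 0.0371, lost in 8 of 17 fits without 1 library).

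Rspo3 carried both marks. Its promoter H3K4me3 (chr10:29532900-29536387) ran from 4.13 to 4.42 in young, median 4.28. Aged group 1 held 4.11, 4.19, 4.16 and 3.83, aged group 2 ran from 3.77 to 4.38, median 4.10, and aged group 3 from 2.88 to 4.32, median 3.67. In that group 9 of 10 libraries were below every young one. The fall was 0.59 ± 0.14 (limma, adjusted p = 0.00378). Promoter H3K27ac ran from 1.79 to 2.16 in young, median 2.03, and held 1.99, 2.25, 1.85 and 1.43 in aged group 1, 1.15 to 1.90 (median 1.52) in aged group 2 and 0.59 to 1.88 (median 1.12) in aged group 3. Again 9 of 10 libraries lay below every young one, and the fall was 0.88 ± 0.18 (limma, adjusted p = 0.0025). Further H3K27ac peaks fell by 1.12 ± 0.25 at 8.77 kb (limma, adjusted p = 0.0043) and by 0.99 ± 0.38 at 35.0 kb (limma, adjusted p = 0.0497, lost in 12 of 17 fits without 1 library).

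The receptors of the R-spondins differed from each other. Lgr4 promoter H3K4me3 (chr2:109916868-109921855) ran from 3.11 to 3.50 in young, median 3.21, then 3.30, 3.23, 3.53 and 2.92 in aged group 1, 3.04 to 3.61 (median 3.36) in aged group 2 and 3.31 to 3.93 in aged group 3, median 3.65. Of the 10 oldest libraries 8 exceeded every young one, a rise of 0.39 ± 0.093 (limma, adjusted p = 0.00336). H3K27ac at Lgr4 changed by 0.32 ± 0.15 (limma, adjusted p = 0.0999). Lgr5, known as a stem cell marker in several epithelia and expressed in uterine epithelium, changed by -0.46 ± 0.19 for promoter H3K4me3 (limma, adjusted p = 0.0703), with 3.34 to 3.90 in young (median 3.78), 3.59, 3.90, 2.93 and 2.82 in aged group 1, 3.00 to 3.72 in aged group 2 (median 3.35) and 2.01 to 3.87 in aged group 3 (median 3.26). Its promoter H3K27ac ran from 0.87 to 1.76 in young (median 1.09), held 0.18, 1.22, -0.07 and 0.38 in aged group 1, and ran from -0.39 to 1.32 in aged group 2 (median 0.27) and from -0.55 to 1.48 in aged group 3 (median 0.87). It changed by -0.64 ± 0.29 (limma, adjusted p = 0.0879). An H3K4me3 peak 117 kb from the start of Lgr5 (chr10:115470786-115471227) had the smallest p of all members. It ran from 1.41 to 2.76 in young, median 2.62, held 1.88, 2.53, 2.54 and 2.28 in aged group 1, and ran from 0.56 to 2.45 in aged group 2, median 1.75, and from -0.86 to 2.11 in aged group 3, median 0.85. All 10 libraries of aged group 3 were below the young mean and 9 below every young one. The fall was 1.63 ± 0.31 (limma, adjusted p = 0.000712), on a median of 16 reads.

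**Figure D3:**
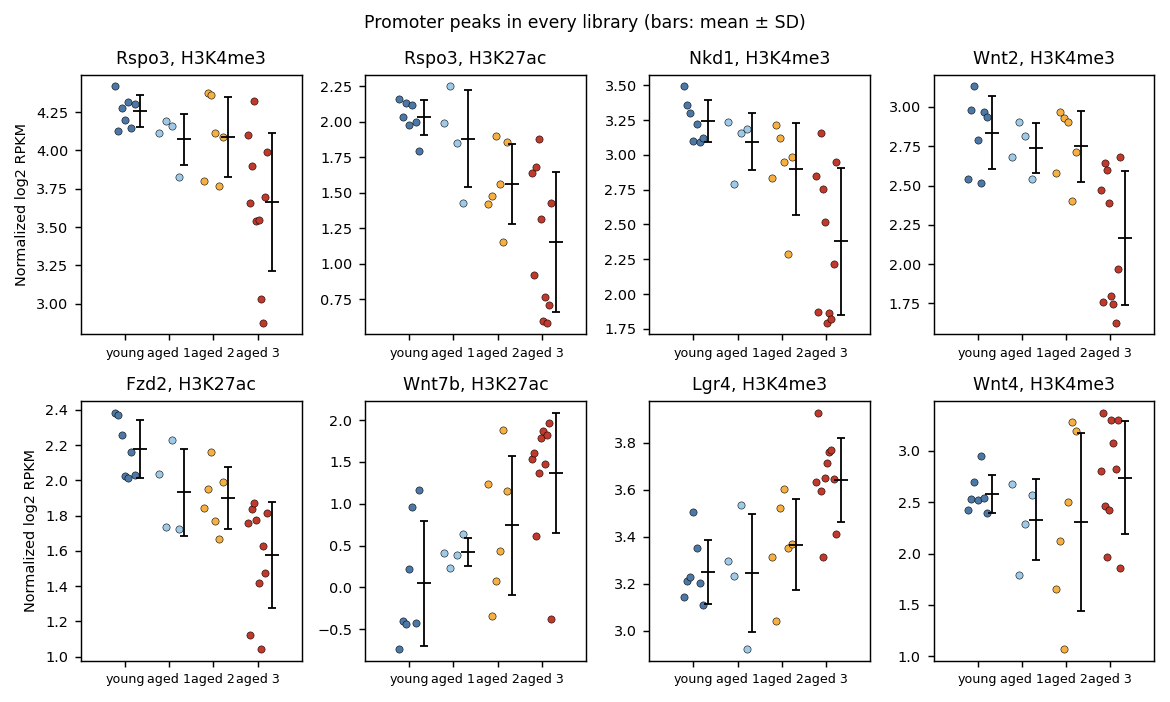
Normalized log2 RPKM at 8 promoter peaks in every library (points), by age group, with bars at mean ± SD. Rspo3 and Fzd2 fall in aged group 3, Wnt7b H3K27ac and Lgr4 H3K4me3 rise, and Wnt4 H3K4me3 keeps a wide overlap with young.

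Secreted inhibitors were lower at 3 of 10 H3K4me3 peaks and higher at 0. The shares were 30% and 0%, against 16.4% and 14.2% of all H3K4me3 peaks. Dkk2 and Dkk3 belong to a family that includes blockers of Lrp5 and Lrp6, and their promoters fell by 0.72 ± 0.23 and 0.66 ± 0.23 (limma, adjusted p = 0.0183 and 0.0334), the second call lost in 8 of 17 fits without 1 library. Sfrp2, a decoy that resembles the Wnt-binding part of Frizzled, had a pair of promoter peaks in each mark. For H3K4me3 the one just upstream of the start, which had the higher mean level and stands for the gene in the counts and plots of promoters, changed by -0.31 ± 0.15 (limma, adjusted p = 0.125). Sfrp2 H3K4me3 fell by 1.21 ± 0.31 at the peak over its start (limma, adjusted p = 0.00488), where young libraries ran from 2.49 to 3.47 and those of aged group 3 from 0.91 to 3.60. H3K27ac there fell by 1.41 ± 0.37 (limma, adjusted p = 0.00937), and by 0.72 ± 0.25 just upstream (limma, adjusted p = 0.0301, lost in 6 of 17 fits without 1 library). Sfrp4 fell by 0.94 ± 0.30 for H3K27ac (limma, adjusted p = 0.0226, lost in 1 of 17 fits without 1 library) and changed by -0.82 ± 0.32 for H3K4me3 (limma, adjusted p = 0.0539). Notum, an enzyme that removes the lipid from Wnt proteins, and Wif1, which binds Wnt proteins, changed by -0.31 ± 0.21 and -0.13 ± 0.09 for H3K4me3, and neither passed.

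Sfrp1 had the largest rise among all member peaks. Its H3K27ac peak 12.3 kb inside the gene (chr8:23423725-23426482) ran from -2.14 to -0.14 in young, median -0.89. It held 0.27, -1.08, -1.11 and -0.28 in aged group 1, ran from -1.52 to 1.49 in aged group 2, median -0.80, and from -1.20 to 2.22 in aged group 3, median 1.89. In that oldest group 8 of 10 libraries exceeded every young library, and replicates 3 and 10 did not. The rise was 1.98 ± 0.51 (limma, adjusted p = 0.00781), on a median of 28 reads. Sfrp1 promoter H3K4me3 changed by 0.17 ± 0.14 (limma, adjusted p = 0.361).

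Inhibitors that act in the cell split by gene. As a role they were lower at 4 of 10 H3K4me3 peaks and higher at 2. The shares were 40% and 20%, against 16.4% and 14.2% of all H3K4me3 peaks. For H3K27ac, 11 of 41 peaks were lower and 4 higher. These are 26.8% and 9.76%, against 14.9% and 14.4% of all H3K27ac peaks. Nkd1 and Nkd2 bind Dishevelled, Axin2 is a scaffold of the complex that breaks down beta-catenin and a widely used target gene, and all of these were lower for promoter H3K4me3, while Rnf43 was higher. Nkd1 H3K4me3 (chr8:88520559-88523834) ran from 3.09 to 3.49 in young, median 3.22. It was 3.24, 2.79, 3.16 and 3.19 in aged group 1, 2.29 to 3.22 (median 2.97) in aged group 2 and 1.79 to 3.16 in aged group 3, median 2.37. Every library of aged group 3 was below the young mean and 9 were below every young library. The fall was 0.86 ± 0.18 (limma, adjusted p = 0.00142).

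Nkd1 was also the member with the most H3K27ac peaks lower, 7 of 8, spread from 8.73 to 51.4 kb inside the gene and falling by 0.57 to 1.00. The strongest (chr8:88536363-88539411) ran from 1.25 to 1.94 in young, median 1.55, then 0.98, 0.81, 1.06 and 0.89 in aged group 1. All 4 of these lay below every young library, although the comparison of aged group 1 with young called no member. Aged group 2 ran from 0.58 to 1.48, median 1.18, and aged group 3 from -0.20 to 1.47, median 0.50, a fall of 1.00 ± 0.20 (limma, adjusted p = 0.00231). The remaining peak, at the promoter, changed by -0.51 ± 0.23 (limma, adjusted p = 0.0855).

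Axin2 fell by 0.41 ± 0.12 for H3K4me3 at the promoter whose sequence is shown (limma, adjusted p = 0.0136). Its levels were 3.71 to 4.00 in young, median 3.85, 4.00, 3.58, 3.76 and 3.56 in aged group 1, 3.37 to 3.90 (median 3.72) in aged group 2 and 2.84 to 4.01 in aged group 3, median 3.50. In the oldest group 8 libraries were below every young one and 1 was above every young one. H3K27ac fell at 3 of 6 peaks, by 0.67 ± 0.19 at the gene's outer start (chr11:108917068-108918349, limma, adjusted p = 0.0123), and by 0.44 ± 0.15 and 0.70 ± 0.25 at the others, whose calls were lost in 8 and 10 of 17 fits without 1 library. At the outer start H3K27ac ran from 1.65 to 2.10 in young (median 1.96), held 1.73, 1.61, 1.81 and 1.41 in aged group 1, and ran from 0.94 to 1.99 in aged group 2 (median 1.46) and from 0.38 to 1.92 in aged group 3 (median 1.16). An H3K4me3 peak of Axin2 at 20.9 kb fell by 1.12 ± 0.36 (limma, adjusted p = 0.0213). Nkd2 fell by 0.46 ± 0.14 for H3K4me3 (limma, adjusted p = 0.0176).

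Rnf43, a ligase that removes Frizzled receptors, had promoter H3K4me3 levels from 3.07 to 4.14 in young, median 3.48, and from 3.46 to 4.93 in aged group 3, median 4.29. Aged group 1 held 4.06, 3.56, 3.59 and 3.35. The rise was 0.70 ± 0.19 (limma, adjusted p = 0.00719) with 7 of 10 libraries above every young one. Its H3K27ac rose at 3 of 8 peaks, by 0.37 ± 0.14 at the promoter (limma, adjusted p = 0.0446), 0.63 ± 0.22 and 0.74 ± 0.25, calls lost in 12, 8 and 5 of 17 fits without 1 library. An H3K4me3 peak at 9.08 kb from an inner start rose by 0.38 ± 0.13 (limma, adjusted p = 0.0279, lost in 4 of 17 fits without 1 library). Znrf3, the related ligase, changed by -0.05 ± 0.10 for promoter H3K4me3 (limma, adjusted p = 0.709), and of its 16 H3K27ac peaks 1 was lower and 1 higher, calls lost in 2 and 8 of those fits.

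**Figure D4:**
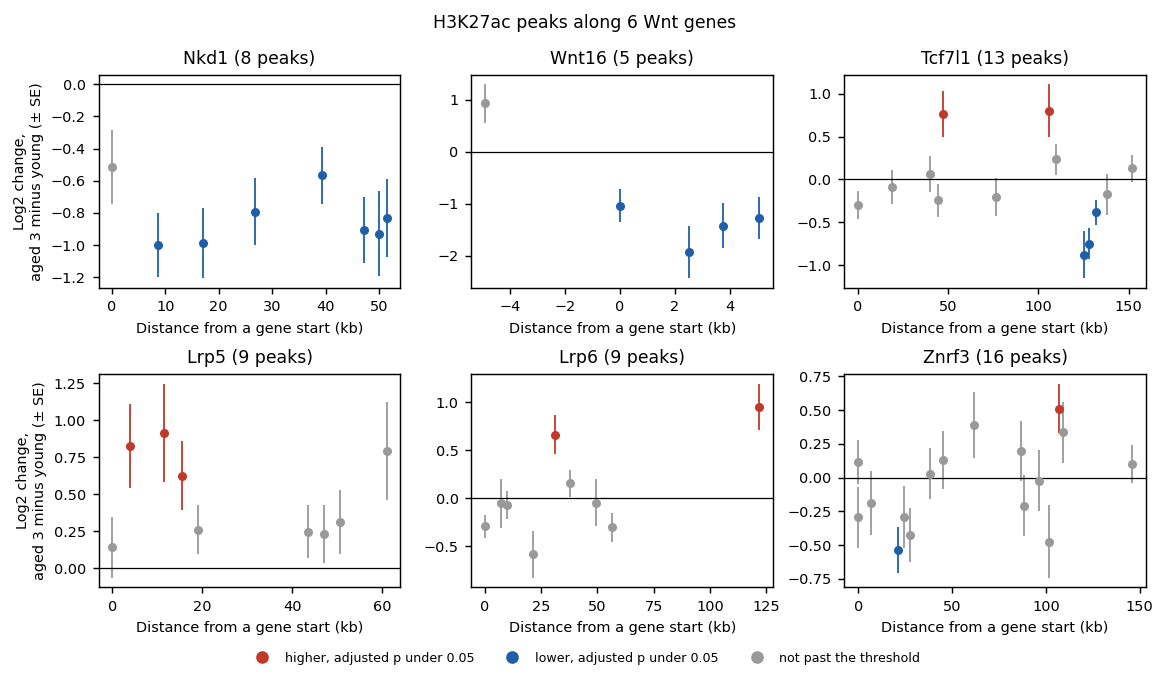
Log2 change of H3K27ac, aged group 3 minus young (± SE, limma), at each peak of 6 genes against distance in kb from the nearest annotated start. All 8 Nkd1 peaks lie below 0, while Tcf7l1 and Znrf3 hold called peaks on both sides.

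Of 4 nuclear effector promoters, 1 was higher for H3K4me3 (Ctnnb1) and 1 lower (Tcf7), and 0 of 4 passed for H3K27ac. Over all genes' promoter peaks 8.78% were higher and 18% lower for H3K4me3, and 6.4% and 19.6% for H3K27ac. Ctnnb1 H3K4me3 ran from 3.20 to 3.87 in young, median 3.43, held 3.62, 3.32, 3.44 and 3.70 in aged group 1, and ran from 3.44 to 4.03 in aged group 2, median 3.51, and from 3.31 to 4.23 in aged group 3, median 3.91. It rose by 0.35 ± 0.13 (limma, adjusted p = 0.0417), a call lost in 10 of 17 fits without 1 library. Ctnnb1 H3K27ac ran from 1.17 to 1.93 in young (median 1.60), held 1.89, 2.04, 1.96 and 1.81 in aged group 1, and ran from 1.43 to 1.86 in aged group 2 (median 1.71) and from 1.41 to 2.12 in aged group 3 (median 1.87). It changed by 0.28 ± 0.12 (limma, adjusted p = 0.07). Tcf7 fell by 0.35 ± 0.12 for H3K4me3, with all 10 libraries of aged group 3 below the young mean (limma, adjusted p = 0.0291, lost in 2 of 17 fits without 1 library). Tcf7l2 changed by -0.05 ± 0.07 at its first promoter and fell by 0.42 ± 0.15 at its inner start (limma, adjusted p = 0.0378, lost in 10 of 17 fits without 1 library).

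Tcf7l1, a TCF factor that acts mostly as a repressor, had called H3K27ac peaks in both directions within the gene. Of 13 peaks, 3 between 125 and 132 kb from the start fell, by 0.38 to 0.88, and 2 rose, by 0.76 ± 0.27 at 47.4 kb and 0.80 ± 0.31 at 106 kb. Of these, the calls at 132, 106 and 47.4 kb were lost in 13, 12 and 8 of 17 fits without 1 library. The peak with the smallest p (chr6:72659263-72661123) ran from 1.49 to 2.20 in young, median 1.91, and from 0.71 to 1.80 in aged group 3, median 1.04, with 2.12, 1.92, 2.04 and 1.52 in aged group 1 and 1.06 to 2.48 in aged group 2 (median 1.58), a change of -0.75 ± 0.18 (limma, adjusted p = 0.00555). At 47.7 kb, H3K4me3 rose as well. It ran from 0.09 to 1.30 in young (median 0.58), held 0.61, 1.31, 1.56 and 0.83 in aged group 1, and ran from 0.70 to 2.09 in aged group 2 (median 1.78) and from 0.34 to 2.38 in aged group 3 (median 1.95). The rise was 1.15 ± 0.28 (limma, adjusted p = 0.00344) on a median of 14 reads. Tcf7l2 had 2 H3K27ac peaks lower, 1 of which lost its call in 11 of 17 fits without 1 library, and 1 higher, by 0.76 ± 0.21 (limma, adjusted p = 0.0116), among 21.

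Other pathway genes, a list of 48 that holds secretion factors, the destruction complex, co-receptors and polarity genes, had 10 of 37 measured promoters lower for H3K4me3 and 2 higher, with a median change of -0.09. These shares, 27% and 5.41%, stood beside the 18% and 8.78% of all genes' promoter peaks. The lower ones included Daam2 (-1.39 ± 0.28), Sostdc1 (-1.18 ± 0.24), Pygo1 (-1.15 ± 0.28) and Dact1 (-0.99 ± 0.20), and the higher ones were Bcl9 and Celsr2 (0.27 ± 0.099 and 0.50 ± 0.19). For H3K27ac, 8 of 33 were lower (24.2%, against 19.6% of all genes' promoter peaks) and 0 higher (against 6.4%), and Daam2 (-1.19 ± 0.24), Ror1 (-1.02 ± 0.28) and Dact1 (-0.90 ± 0.22) fell furthest. Target genes, a list of 16, had 3 of 14 H3K4me3 promoters higher (Ccnd1, Msx2, Ephb3) and 4 lower (Cd44, Bmp4, Twist1, Snai2), with a median change of 0.00. That is 21.4% higher and 28.6% lower, over 14 genes, beside 8.78% and 18% of all genes' promoter peaks. Their H3K27ac was higher at 1 of 11, Sox9 (1.67 ± 0.36), and lower at 3, Cd44, Twist1 and Snai2. These are 9.09% and 27.3%, beside 6.4% and 19.6% of all genes' promoter peaks.

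The younger aged groups gave no member call. With limma, 0 member peaks passed for aged group 1 against young, aged group 2 against young or aged group 3 against aged group 2, in either mark. In the table as a whole, 0.00387%, 0.217% and 0.205% of H3K4me3 peaks were called in these comparisons, and 0%, 0.011% and 0% of H3K27ac peaks. At an unadjusted p under 0.05 there were 3, 10 and 19 member H3K4me3 peaks and 12, 16 and 27 H3K27ac peaks. The H3K4me3 counts are 3.53%, 11.8% and 22.4% of the members, beside 3.61%, 7.7% and 21.6% of all peaks, and the H3K27ac counts 6.78%, 9.04% and 15.3%, beside 3.93%, 8.92% and 16% of all peaks. Voom on recovered reads called 1 member H3K4me3 peak, lower, for aged group 3 against aged group 2, and 0 in the other 5. The last comparison gave up to 4 H3K4me3 calls when 1 library was left out: 4 without replicate 10, 3 without replicate 3 and 2 without replicate 4 of aged group 3, and 1 without replicate 5 of aged group 2. A linear term in weeks of age over all 27 libraries called 11 of the 85 member H3K4me3 peaks higher and 30 lower. The same term called 15.1% of all H3K4me3 peaks higher and 17.4% lower. For H3K27ac it called 20 of 177 member peaks higher and 39 lower, where 15.7% and 16.5% of all H3K27ac peaks were.

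Aged group 3 was not uniform. Its SD exceeded that of young at 65 of 85 H3K4me3 and 114 of 177 H3K27ac member peaks. The share of all peaks with a larger SD was not counted, so a trait of the members cannot be told from one of the libraries. Of the 26 lower H3K4me3 peaks, replicate 3 was below every young library at 3, replicate 4 at 13 and replicate 10 at 14, while replicates 6 to 9 were at 25 or 26. For the 38 lower H3K27ac peaks these numbers were 14, 8 and 14, against 33 to 36 in replicates 6 to 9. The epithelial minus stromal score for H3K4me3 was -0.066, -0.00014 and -1.19 in replicates 3, 4 and 10, inside or near the young range of -1.23 to 0.01. The score was 1.10 and 1.25 in replicates 1 and 5, each below every young library at 18 of the 26 peaks, and reached 2.58 in the group. Replicate 10 had the lowest score, yet was below every young library at more of these peaks than replicate 3. The split also lay along the digit of the library code, described below. Of replicates 6 to 9, all but replicate 6 carried digit 6, which no young library carried. Replicates 3, 4 and 10 carried digits that young libraries carried too. Replicate 6 also shared its digit with a young library, yet was below every young library at 25 of the 26 H3K4me3 peaks. Whether the score or the digit goes with these numbers was not tested. With that score as a covariate, which is made from the same libraries, 0 H3K4me3 peaks were higher and 1 lower (the Wnt7b peak at 3.13 kb, -2.38, limma, adjusted p = 0.0129), and 0 H3K27ac peaks passed. Calls were few over all peaks in that fit too, 0.647% for H3K4me3 and 0.0828% for H3K27ac.

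Each library name also holds a code whose first character is a digit, and the number of the mouse. What they stand for is not given in the sources used here. With the code digit in the model, 2 H3K4me3 peaks were higher and 5 lower, 8.24% of the members where 9.03% of all peaks were called, so the members' share no longer lay above that of all peaks. These were at Tcf7l1 (1.03), Lrp6 (1.18), Nkd1 (-0.70), Lgr5 (-1.39), Rspo2 (-1.08), Wnt2b (-0.81) and Wnt9a (-0.60), and in H3K27ac the 4 lower peaks were at Nkd1 (-0.94 and -0.77), Rspo3 (-0.75) and Fzd2 (-0.56), 2.26% of the members against 2.51% of all peaks. With the mouse number series (under 100, or not) in the model, 6 H3K4me3 peaks were higher and 11 lower, and 8 and 18 in H3K27ac. These are 20% of member H3K4me3 peaks against 14% of all, and 14.7% of member H3K27ac peaks against 13.5% of all. Among mouse numbers under 100 alone, with 6 young and 3 aged group 3 libraries, 3 H3K4me3 peaks passed, all lower, at Lgr5 (-2.07), Wnt16 (-2.06) and Sfrp2 (-1.36), where 1.73% of all H3K4me3 peaks and 0.0166% of all H3K27ac peaks were called. In that subset Rspo3 changed by -0.25 for H3K4me3 and -0.55 for H3K27ac, and neither passed.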

How the data were processed

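H3K4me3 and H3K27ac chromatin immunoprecipitation with sequencing was done on 27 uteri per mark, and 5 input libraries were not used. The deposited tables hold log2 RPKM per peak and library, per the file headers. The submitters' processing notes name the build GRCm38 and, without their roles, Bowtie2, deepTools 3.5.1, ChIPseeker 1.34.1, MACS2 2.2.9.1, DESeq2 and DiffBind 3.8.0. Each value gave a whole number of reads within 0.05, or the value of a peak without reads (0.9 reads), in 100% of cases. Reads in peaks were 36.3% to 75.8% (H3K4me3) and 32.3% to 48.7% (H3K27ac) of each library, and RPKM scaled to the total does not correct for this.

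After quantile normalization over the 27 libraries per mark, limma 3.58.1 in R 4.3.3 was fitted (4 group means, mean-variance trend, two-sided, Benjamini-Hochberg over 25827 and 54354 peaks on chromosomes 1 to 19 and X, threshold 0.05). The 8 peaks per mark on chromosome Y, with 0 or 1 reads, were left out. Changes are differences of group means with the model SE. Starts came from RefSeq GRCm38.p6, and positions are as deposited. The fit was tested on simulated data. Members, lists and tests were chosen with earlier results of these data known. Values in each group are given for the 10 genes per mark with the smallest p, 1 peak each, among members past the threshold, and for Wnt4, Wnt5a, Wnt7a, Rspo3, Lgr5, Axin2 and Ctnnb1 at the promoter. Ranges for Wnt11, Rnf43 and Sfrp2 were added after their values were seen. Labels name separate animals by number, with 1 library each per mark, and no 2 libraries of a group agreed within counting noise (lowest chi-square per degree of freedom 1.98 over 87 pairs of H3K27ac and 2.65 over 87 of H3K4me3). The spread thus holds animal and library effects together. One H3K4me3 column lacked its code digit and was matched by mark, age and mouse number. Alternatives are listed in the closing section. Voom on recovered reads, the fit without code digit 6 and the fit of mouse numbers under 100 were chosen after seeing the data.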

Additional observations from a re-analysis of the deposited data

Results flagged for a closer look

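Of the 128 groups of 4 to 10 libraries tested at the peaks given in full, 2 held a library whose gap to its nearest neighbour exceeded Dixon's 95% value, where chance gives about 1 in 20. At the H3K4me3 peak 117 kb from the start of Lgr5, young replicate 2 had a level of 1.41, while the nearest young library had 2.35. At the Rspo2 H3K4me3 peak, replicate 5 of aged group 2 had 0.94 and the nearest library of that group 1.91.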

How the results depend on the processing

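For aged group 3 against young, counts of member H3K4me3 peaks higher and lower (10 and 26) became 6 and 25 with values as deposited, which shifts the median of all peaks to -0.14, 6 and 20 with peaks of the lowest levels left out, 2 and 5 with the code digit, 6 and 11 with the mouse number series, 0 and 1 with the epithelial minus stromal score, 4 and 7 without code digit 6 (4 libraries per mark, all aged), and 0 and 3 in mouse numbers under 100. For H3K27ac (16 and 38) the counts were 9 and 25 with those of the lowest levels left out, 0 and 4 with the code digit, 8 and 18 with the series, 0 and 0 with the score, 0 and 7 without code digit 6 and 0 and 1 in mouse numbers under 100. Over all H3K4me3 peaks the called share fell from 30.7% to 9.03% with the code digit, 14% with the series, 0.647% with the score, 9.52% without code digit 6 and 1.73% in mouse numbers under 100, where members gave 42.4%, 8.24%, 20%, 1.18%, 12.9% and 3.53%. For all H3K27ac peaks it fell from 29.3% to 2.51%, 13.5%, 0.0828%, 3.48% and 0.0166%, where members gave 30.5%, 2.26%, 14.7%, 0%, 3.95% and 0.565%. The cause was not tested, and the last 2 fits hold fewer samples. Median centring, log2(RPKM + 0.5), the fit of 2 groups and voom kept each count within 1.5 times. With 1 library left out the counts ran from 7 to 12 and 21 to 29 for H3K4me3, 6 to 25 and 28 to 43 for H3K27ac, and 0 to 4 for H3K4me3 in aged group 3 against aged group 2, where voom gave 1. In every such fit 27 of 36 H3K4me3 and 29 of 54 H3K27ac calls passed.

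The direction turned for Wnt4 H3K4me3 with the code digit (-0.14) and the score (-0.74), and with the score also for Wnt7a (-0.38), Ctnnb1 (-0.16) and Wnt5a (0.0084). Wnt4 H3K27ac turned with the code digit (-0.45), the series (-0.030), the score (-0.53), without code digit 6 (-0.10), in mouse numbers under 100 (-0.045) and, with 1 library left out (-0.029 without young replicate 7, to 0.23 without replicate 10 of aged group 3), and Wnt7a H3K27ac with the score (-0.55).

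Replicate numbers did not pair the animals. Deviations of same-numbered young and aged group 3 libraries correlated from -0.23 to 0.24 for H3K4me3 and from -0.35 to 0.29 for H3K27ac over 7 pairs, and 1 young library per mark correlated best with its own number. With the replicate block the counts were 12 higher and 25 lower for H3K4me3, 17 and 33 for H3K27ac, and 0 in the other comparisons. Wnt5a H3K4me3 was -0.18 and no longer passed.

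Peaks with few reads, such as those of Lgr5 (16), Tcf7l1 (14) and Wnt16 (21), limit what single libraries can show.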
